A study of Homo sapiens with 12 samples.

Results

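The S100 proteins described here are the products of 10 human genes, S100A2, S100A4, S100A6, S100A8, S100A9, S100A10, S100A11, S100A14, S100A16 and S100P, out of 20003 genes in the expression table. They were chosen by name from the S100 family with the differences between the ZNF263 and control libraries of these lines already known. Their levels and changes are therefore given as a description, with no p-value. RNA-seq had been done on PC9, HCC827 and H1975, established human lung cancer lines with activating mutations of the receptor tyrosine kinase EGFR. In each line, 2 libraries came from cells with a vector that overexpressed ZNF263, a zinc finger transcription factor, and 2 came from cells with a control vector, which makes 12 libraries in 6 groups. All groups, controls included, had gone through stepwise exposure to osimertinib, an EGFR inhibitor, so no untreated cells were compared. The labels do not say whether a line was 1 clone or a pool, nor whether the libraries of a group came from separate cultures. Every p-value rests on the spread between the 2 libraries of a group, pooled over all 6 groups and so over the lines. That spread may be technical only.

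S100 proteins are small calcium-binding proteins built from a pair of EF-hand motifs, and most work as dimers. Calcium binding exposes a surface that grips partner proteins such as annexins, myosin heavy chain or ezrin, and some members are also secreted and act on receptors such as AGER (RAGE) and TLR4. Most of the genes lie in a cluster on the long arm of chromosome 1 beside genes of epidermal differentiation, while S100P stands alone on chromosome 4. Several members, among them S100A2, S100A4 and S100P, are widely studied as tumour markers.

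Expression was deposited as FPKM, which scales a gene's fragments by its length and by the size of the library. A log2 change below is the difference, ZNF263 minus control, of mean log2(FPKM + 1) within a line, with the SE of a limma fit over all 12 libraries. That scale understates the change of genes with low FPKM. A gene was tested if it reached 1 FPKM in at least 2 libraries, and it was called higher or lower at a Benjamini-Hochberg adjusted p under 0.05. The targeted gene checked the labels. ZNF263 (chromosome 16, from 3263800 to 3301401 of GRCh38) averaged 39.1 ± 0.221 FPKM in PC9 ZNF263 libraries and 9.33 ± 0.314 FPKM in PC9 control libraries. In HCC827 it averaged 19.7 ± 0.093 FPKM with ZNF263 and 12.5 ± 0.977 FPKM in control libraries, and in H1975 39.5 ± 0.502 FPKM with ZNF263 and 9.91 ± 0.399 FPKM in control libraries (SD, n = 2 each). All 3 increases were called, with the smallest, 0.62 ± 0.061 on the log2 scale, in HCC827 (limma adjusted p = 4.17e-05).

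Per library, 10672 to 10997 genes were at or above 1 FPKM. Once scaled by the relative depth of each library, the FPKM values of nearly every gene tried were whole multiples of 1 step within a line. The smallest read numbers that fit the values could thus be recovered, except for a multiplier that all libraries of the line share. At the median gene, 1 FPKM stood for 119 to 129 such reads in H1975, 74.9 to 85.3 in PC9 and 67.1 to 70.4 in HCC827. HCC827 and H1975 lacked values for 3383 and 3339 genes that had values in PC9. Levels set side by side across lines therefore come from tables that may have been processed separately, and ZNF263 was tested against control only within a line. In cultures measured in bulk, fewer cells of a type and less RNA per cell cannot be told apart.

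Of the 10 genes, 9 passed the filter on low values, and S100A8 did not. In PC9, 1 of 9 was called, S100P, which was higher. The background there was 11.3% of 12623 genes called, with 7.21% higher and 4.12% lower. HCC827 had 4 of 9 called, S100P and S100A14 higher and S100A11 and S100A16 lower. The background in HCC827 was 19.5% of 12266 genes, with 13% higher and 6.44% lower. H1975 had 7 of 9 called, of which S100A4, S100A6 and S100A10 were higher and S100A2, S100A9, S100A14 and S100P were lower. There the background was 64.2% of 12258 genes, with 32.1% called higher and 32.1% called lower. Because the genes were chosen with these contrasts known, nothing is read from the member counts against the background. The median log2 change of the 9 tested genes was 0.01 in PC9 (0.00 over all tested genes), 0.07 in HCC827 (0.04 over all) and -0.12 in H1975 (0.00 over all).

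**Figure D1:**
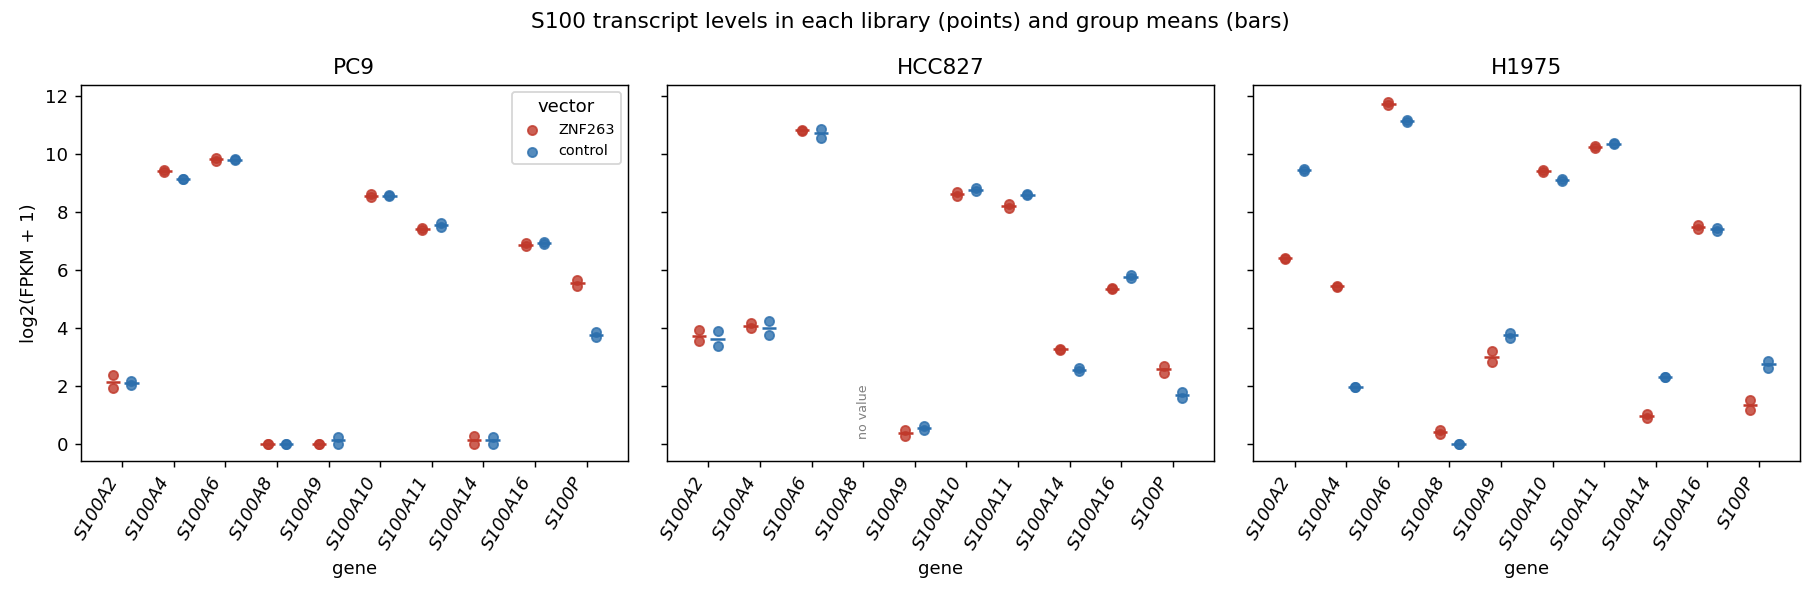
Level of each of the 10 S100 genes as log2(FPKM + 1) in every library of PC9, HCC827 and H1975. Points are libraries, with ZNF263 left and control right of each gene's mark, and short bars are group means (n = 2). S100A6 is highest in every group. The widest gaps between ZNF263 and control are those of S100A4 and S100A2 in H1975 and of S100P in PC9. S100P and S100A14 in H1975 follow, with log2 changes of -1.41 and -1.34.

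S100P was the gene of the set called in every line, and its direction differed between them. S100P binds ezrin in the cell and AGER outside it, is abundant in placenta and is raised in many adenocarcinomas. On GRCh38 it occupies chromosome 4 from 6693069 to 6697170, on the plus strand. It measured 42.5 and 49.3 FPKM in the ZNF263 libraries of PC9, against 13.3 and 11.7 FPKM in the control libraries. HCC827 had 4.46 and 5.40 FPKM with ZNF263, against 2.47 and 1.97 FPKM with the control vector. H1975 went the other way, with 1.81 and 1.24 FPKM in ZNF263 libraries, against 5.17 and 6.19 FPKM in control libraries. The groups did not overlap in any line. The ratio of mean FPKM, ZNF263 over control, was 3.66 in PC9, 2.22 in HCC827 and 0.269 in H1975. On the log2 scale the changes were 1.79, 0.88 and -1.41 with an SE of 0.130. The reads behind these values were few in HCC827, 37 and 45 with ZNF263 and 21 and 16 with control, and in H1975, 29 and 20 with ZNF263 and 84 and 93 with control.

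**Figure D2:**
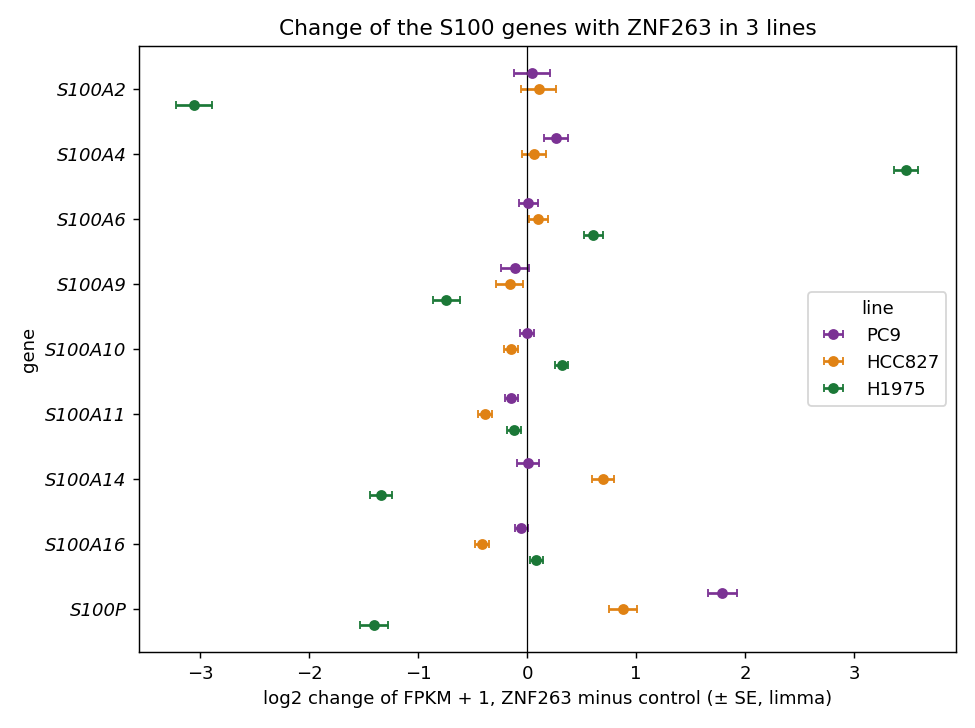
Log2 change of FPKM + 1, ZNF263 minus control, of the 9 tested S100 genes in the 3 lines. Points are limma estimates and bars ± SE, from n = 2 libraries per group. S100A4 lies farthest to the right at 3.48 and S100A2 farthest to the left at -3.06, both in H1975, and S100P lies right of 0 in PC9 and HCC827 and left of 0 in H1975.

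In H1975, the neighbouring genes S100A2 and S100A4 moved in opposite directions and by the largest amounts of the set. S100A4 is known for binding non-muscle myosin heavy chain MYH9 and for its association with motility and metastasis. In H1975 it measured 42.0 and 42.2 FPKM with ZNF263, against 2.89 and 2.84 FPKM with control, which is 801 and 811 reads against 56 and 51. The ZNF263 libraries lay far above the control libraries, with a ratio of mean FPKM of 14.7 and a log2 change of 3.48 ± 0.111. In PC9 the gene was already abundant, at 697 and 668 FPKM with ZNF263, against 568 and 566 FPKM with control. These groups did not overlap, with a ratio of 1.20, but the log2 change of 0.27 was not called. With the replicate number as a block, or when PC9 was fitted and filtered by itself, it was called, with an SE of 0.071 or 0.048. The latter alternative was not planned. The change was not called when PC9 was fitted by itself with the common filter, with an SE of 0.041, nor under the other alternatives. HCC827 had 16.8 and 14.9 FPKM with ZNF263, within the 17.9 and 12.6 FPKM of the control libraries. Without the first of these control libraries the change in HCC827 was 0.30 and was called.

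S100A2 is best known from basal and squamous epithelium. The gene spans 153561108 to 153567890 on chromosome 1 (GRCh38, minus strand). It measured 84.6 and 82.4 FPKM in the ZNF263 libraries of H1975, against 682 and 721 FPKM in the control libraries. Its ratio of mean FPKM was 0.119 and its log2 change -3.06 ± 0.164, the largest decrease of the set. In the other lines the groups overlapped at low levels. PC9 had 2.80 and 4.14 FPKM with ZNF263, against 3.06 and 3.51 FPKM with control, and HCC827 had 10.6 and 14 FPKM with ZNF263, against 13.7 and 9.30 FPKM with control. The loss of S100A2 and the gain of S100A4 also changed their places within H1975: S100A2 stood above S100A10 in control libraries and below S100A16 in ZNF263 libraries, and S100A4 stood above S100A9 with ZNF263 and below S100A14 with control.

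The promoters of the genes with the widest changes are shown because S100A2 and S100A4 are neighbours that moved in opposite directions, and S100P and S100A14 moved up in HCC827 and down in H1975. Each is the 250 bases before a RefSeq transcription start (GRCh38.p14), written on the gene's own strand. These stretches lie inside the gene spans used here for position, which reach farther upstream. Sequence before those outer ends was not searched. The stretches are chr1:153565845-153566094 (minus strand) for S100A2, the outermost of 2 starts, chr1:153545807-153546056 (minus) for S100A4, chr1:153616326-153616575 (minus) for S100A14 and chr4:6693628-6693877 (plus) for S100P. Capitals mark matches, on either strand, to GGAGGA, the core of known ZNF263 motifs, and to TGANTCA, the AP-1 motif.
S100A2: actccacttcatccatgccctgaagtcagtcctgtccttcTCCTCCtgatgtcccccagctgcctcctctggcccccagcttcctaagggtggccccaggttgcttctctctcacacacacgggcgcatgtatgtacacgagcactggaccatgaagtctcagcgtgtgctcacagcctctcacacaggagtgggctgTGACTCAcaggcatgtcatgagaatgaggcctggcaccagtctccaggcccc
S100A4: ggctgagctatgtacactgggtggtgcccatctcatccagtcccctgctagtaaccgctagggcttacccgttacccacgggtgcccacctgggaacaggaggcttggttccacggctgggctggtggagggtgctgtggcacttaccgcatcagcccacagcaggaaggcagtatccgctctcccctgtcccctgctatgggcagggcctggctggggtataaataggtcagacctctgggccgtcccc
S100A14: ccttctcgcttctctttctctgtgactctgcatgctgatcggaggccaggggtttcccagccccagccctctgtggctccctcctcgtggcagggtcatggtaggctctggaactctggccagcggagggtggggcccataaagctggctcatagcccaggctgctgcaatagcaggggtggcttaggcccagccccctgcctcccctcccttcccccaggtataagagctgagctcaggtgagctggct
S100P: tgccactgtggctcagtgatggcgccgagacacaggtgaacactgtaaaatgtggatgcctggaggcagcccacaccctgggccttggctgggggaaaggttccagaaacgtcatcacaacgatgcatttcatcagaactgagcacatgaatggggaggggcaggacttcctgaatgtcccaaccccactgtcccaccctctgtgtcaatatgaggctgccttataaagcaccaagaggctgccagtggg
The S100A2 stretch holds GGAGGA on the opposite strand, read here as its complement, and TGACTCA. The other 3 stretches hold no match within their 250 bases.

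All 10 genes had a promoter in the RefSeq table, with 14 windows of 300 bases that reach from 250 bases before the start to 50 after it. GGAGGA was found in 6 of the 14 windows, those of S100A2, S100A9, S100A10, S100A14, S100A16 and S100P, and in 36.6% of the 35116 promoters of the table. GGAGGAGGA, each copy of which also holds GGAGGA, was found in none of the 14 and in 3.77% of all promoters. TGANTCA was found in 1 window, that of S100A2, and in 7.71% of all promoters. A match says only that these letters occur in the window. The windows with GGAGGA belonged to genes that were called higher, called lower and not called.

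S100A6 and S100A10 were higher in H1975 by modest amounts. S100A6, or calcyclin, binds CACYBP, a component of a ubiquitin ligase, and was the most abundant transcript of the set in every library (chromosome 1, 153534599 to 153536244, minus strand; 23 of its 971 exonic bases overlap an antisense gene). It measured 3561 and 3304 FPKM in H1975 ZNF263 libraries, against 2219 and 2288 FPKM in control libraries, a ratio of 1.52 and a log2 change of 0.61 ± 0.086. In PC9 it measured 929 and 873 FPKM with ZNF263, against 878 and 910 FPKM with control, with overlap. HCC827 had 1831 and 1769 FPKM with ZNF263, within the 1874 and 1499 FPKM of its control libraries, and without the first of those control libraries the change was 0.26 and was called. After quantile normalization it was 0.19 and was called as well. S100A10, or p11 (chromosome 1, 151982915 to 151994390, minus strand), has lost calcium binding and is held constantly to annexin A2, with which it brings plasminogen and its activator PLAT to the cell surface. It measured 706 and 658 FPKM in H1975 ZNF263 libraries, against 532 and 564 FPKM in control libraries, a ratio of 1.25 and a log2 change of 0.32 ± 0.062. Its levels were 389 and 367 FPKM with ZNF263 in PC9, against 375 and 382 FPKM with control, which overlapped. HCC827 had 374 and 412 FPKM with ZNF263, both below the 449 and 423 FPKM of the control libraries. That change, -0.15, was not called, but it was -0.22 and called lower when the libraries of a line were scaled by the median of ratios.

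S100A11 and S100A16 were lower in HCC827. S100A11 (chromosome 1, 152032506 to 152047907, minus strand) binds annexin A1 and is known from epidermal growth control. It measured 278 and 311 FPKM in HCC827 ZNF263 libraries, against 389 and 382 FPKM in control libraries, a ratio of 0.765. The log2 change was -0.39 ± 0.063, and it was not called when HCC827 was fitted by itself, but was called again, with an SE of 0.092, when HCC827 was also filtered by itself. S100A11 also lay below control in PC9, at 172 and 165 FPKM with ZNF263, against 177 and 195 FPKM with control, and in H1975, at 1230 and 1181 FPKM with ZNF263, against 1299 and 1326 FPKM with control. Neither group pair overlapped, but the changes of -0.14 and -0.12 were not called. The H1975 change was called lower when H1975 was fitted by itself. The annotation holds 2 pseudogenes named after S100A11, so reads may have been shared with them.

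S100A16 is expressed in many tissues and lies next to S100A14 on chromosome 1, at 153606886 to 153613145 against 153614255 to 153616986 (GRCh38, both minus strand). S100A16 measured 39.43 and 39.997 FPKM in HCC827 ZNF263 libraries, against 55.5 and 51.1 FPKM in control libraries, a ratio of 0.745 and a log2 change of -0.41 ± 0.062. PC9 had 120 and 113 FPKM with ZNF263, against 118 and 123 FPKM with control, and H1975 had 185 and 171 FPKM with ZNF263, against 175 and 161 FPKM with control, with overlap in both. After quantile normalization the H1975 change was 0.19 and was called higher.

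S100A14 changed in the direction opposite to its neighbour S100A16 in HCC827. It is an epithelial member that is often altered in carcinomas. In HCC827 it measured 8.71 and 8.34 FPKM with ZNF263, against 5.14 and 4.63 FPKM with control, a ratio of 1.74 and a log2 change of 0.70 ± 0.10. With a pseudocount of 0.1 in place of 1 the HCC827 change was 0.79 and was not called. In H1975 it fell to 1.02 and 0.838 FPKM with ZNF263, against 3.87 and 3.91 FPKM with control, a ratio of 0.239 and a log2 change of -1.34. The groups of both lines stood apart, in opposite order. The values rested on 40 and 33 reads with ZNF263 and 154 and 144 reads with control in H1975. PC9 hardly expressed the gene, at 0.186 FPKM in 1 of 2 ZNF263 libraries and 0.172 FPKM in 1 of 2 control libraries. Each of these values stands for at least 1 read.

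S100A8 and S100A9 form calprotectin, a metal-binding antimicrobial dimer of neutrophils and monocytes that signals through TLR4 and AGER. Their genes lie on chromosome 1, S100A8 at 153390032 to 153391188 on the minus strand and S100A9 at 153357854 to 153361027 on the plus strand. S100A9 measured 8.23 and 5.98 FPKM in H1975 ZNF263 libraries, against 11.6 and 13.2 FPKM in control libraries, which is 160 and 117 reads against 230 and 242. The groups did not overlap, with a ratio of 0.571 and a log2 change of -0.74 ± 0.127, which was -0.81 and not called with a pseudocount of 0.1. HCC827 had 2 to 5 reads of S100A9 in each library. PC9 had 0.167 FPKM of S100A9 in 1 control library, which stands for at least 1 read. S100A8 had 8 and 5 reads in H1975 ZNF263 libraries, which is 0.397 and 0.246 FPKM, and was listed at 0 in both control libraries. PC9 listed S100A8 at 0 in every library, and HCC827 had no value for it.

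Markers of myeloid cells, the usual source of calprotectin, were given beside these values. Of 12 such markers, 3 passed the filter on low values, and their levels did not all follow S100A9. In H1975 the monocyte receptor CD14 averaged 20.2 ± 2.09 FPKM with ZNF263 and 3.09 ± 1.23 FPKM with control (SD, n = 2 each; log2 change 2.40, limma adjusted p = 3.15e-07). CSF1R and CD68 fell in H1975, by log2 changes of 0.75 and 0.41 (limma adjusted p = 3.74e-06 and 0.000159). The leukocyte marker PTPRC was at or near 0 in every library, with group means of at most 0.0317 FPKM, and CSF3R, FCGR3B, TYROBP and MPO were listed at 0 in all PC9 libraries. The summed level of the listed markers was 80.8 to 87.2 FPKM in H1975 ZNF263 libraries and 89.0 to 90.2 FPKM in control libraries. In HCC827 it was 33.3 to 39.2 FPKM with ZNF263 and 44.1 to 45.5 FPKM with control, and in PC9 4.79 to 4.83 FPKM with ZNF263 and 3.86 to 4.56 FPKM with control.

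Summed over the set, transcripts of these genes took up 0.709 and 0.685% of all FPKM in PC9 ZNF263 libraries, against 0.648 and 0.663% in control libraries. The share was 0.743 and 0.741% with ZNF263 in HCC827, within the 0.774 and 0.686% of its control libraries. In H1975 the share was 1.57 and 1.48% with ZNF263, against 1.32 and 1.37% with control. A few genes carried these sums. S100A6, S100A4 and S100A10 made up 84.8 to 85.7% of the sum in PC9, and S100A6, S100A10 and S100A11 96.6 to 96.9% in HCC827. In H1975 the 3 highest genes were S100A6, S100A11 and S100A10 with ZNF263, at 94.4 to 94.5% of the sum, and S100A6, S100A11 and S100A2 with control, at 85.2%.

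**Figure D3:**
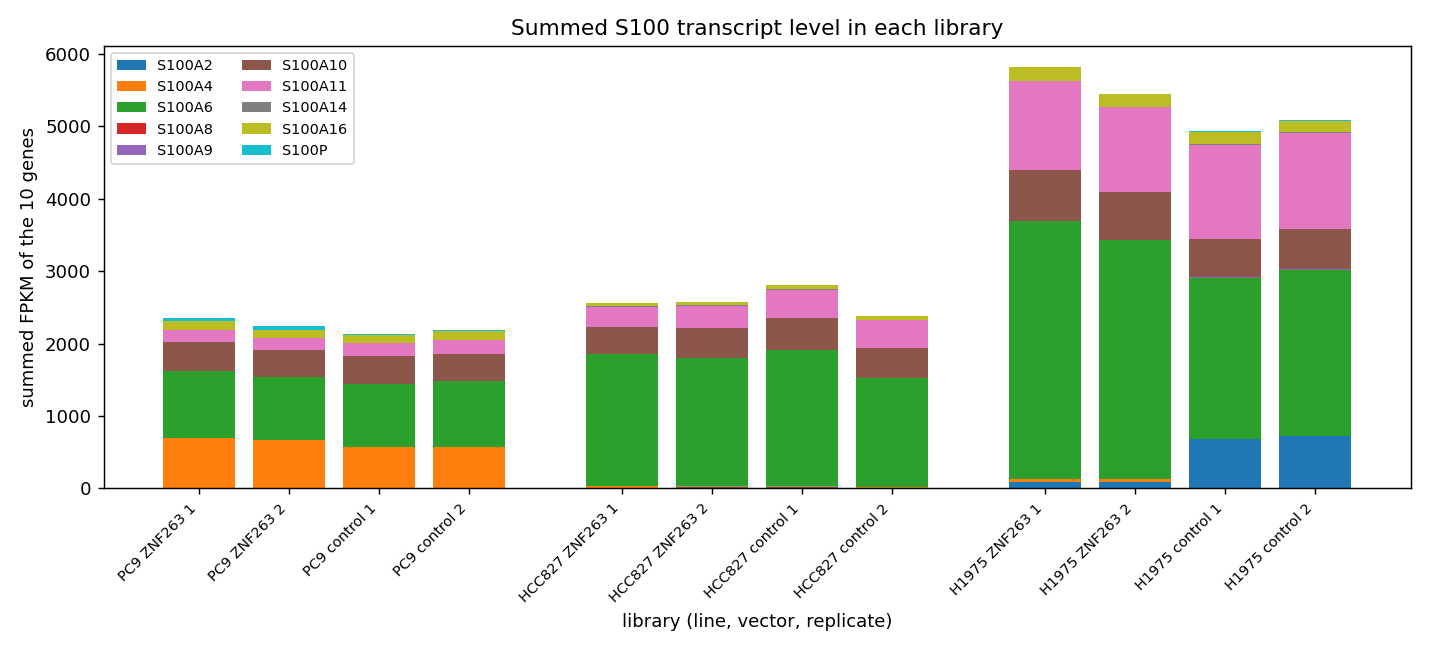
Summed FPKM of the 10 S100 genes in each library, stacked by gene, with ZNF263 left of control in each line. H1975 sums are 5820 and 5447 FPKM with ZNF263 and 4930 and 5086 FPKM with control, and the S100A2 layer is wide only in the H1975 control libraries. HCC827 has no value for S100A8, drawn as 0.

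The order of levels was the same with ZNF263 and control in PC9 and HCC827 for the genes that could be ranked. PC9 ran from S100A6 through S100A4, S100A10, S100A11, S100A16 and S100P to S100A2, and no neighbours in that order overlapped. S100A14, S100A9 and S100A8 followed at or near 0 and could not be ordered. HCC827 ran from S100A6 through S100A10, S100A11, S100A16, S100A4, S100A2, S100A14 and S100P to S100A9, and S100A4 and S100A2 overlapped in its control libraries. In H1975 the order with ZNF263 was S100A6, S100A11, S100A10, S100A16, S100A2, S100A4, S100A9, S100P, S100A14 and S100A8. In H1975 control libraries it was S100A6, S100A11, S100A2, S100A10, S100A16, S100A9, S100P, S100A14, S100A4 and S100A8. S100A4 was thus at 566 to 697 FPKM in PC9 libraries and 2.84 to 42.2 FPKM in H1975 libraries, set side by side with no test.

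Of the 11 other genes of the family in the table, 3 were expressed enough to be tested, S100A3, S100A5 and S100A13. S100A3, known as a protein of the hair cuticle, rose in H1975 together with S100A4, whose span on chromosome 1 (153543613 to 153550136, GRCh38, minus strand) encloses it (153547329 to 153549372). It measured 34.7 and 35.1 FPKM with ZNF263, against 5.20 and 5.28 FPKM with control, a log2 change of 2.52 ± 0.133 (limma adjusted p = 4.30e-09). The annotation gives the genes 0 exonic bases in common on the same strand, but how reads of their shared span were counted is not given in the sources used here. Neither PC9, at 34.5 and 29.8 FPKM with ZNF263 and 27.5 and 25.6 FPKM with control, nor HCC827, at 1.61 and 1.22 FPKM with ZNF263 and 2.31 and 1.33 FPKM with control, passed the test for S100A3 (limma adjusted p = 0.248 and 0.306). S100A13, which takes part in the release of growth factors that lack a signal peptide, rose in HCC827 and fell in H1975. It averaged 35.2 ± 1.82 FPKM with ZNF263 and 26.7 ± 2.86 FPKM with control in HCC827 (SD, n = 2 each; log2 change 0.39 ± 0.089, limma adjusted p = 0.00936), a call that was lost without the first ZNF263 library. In H1975 it averaged 35.3 ± 2.96 FPKM with ZNF263 and 47.05 ± 1.26 FPKM with control (log2 change -0.41, limma adjusted p = 0.00145). S100A13 shares 235 exonic bases with S100A1 on the opposite strand, and whether the counting used strand is not given in the sources used here. S100A5 was not called in any line.

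The chromosome 1 cluster did not move as a block in H1975. For each member, the median change of its 20 nearest tested genes outside the family was taken, over spans of 2.36 to 2.41 Mb for the genes of chromosome 1. That median was 0.05 in H1975 for the genes around S100A2 to S100A16 and -0.01 for those around S100A10 and S100A11. Less this median, the H1975 changes were -3.11 for S100A2, 3.43 for S100A4, 0.56 for S100A6, -0.79 for S100A9, -1.39 for S100A14 and 0.33 for S100A10. For S100P on chromosome 4, the neighbours' medians were 0.07 in PC9, 0.08 in HCC827 and -0.12 in H1975, and its changes less these were 1.72, 0.80 and -1.28. Among the 26 tested genes of other families near the cluster (at most 500 kb away), 9 were higher and 7 lower in H1975. HCC827 had 3 higher and 7 lower, and PC9 1 higher and 1 lower. Over all tested genes, 64.2% were called in H1975, 19.5% in HCC827 and 11.3% in PC9.

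**Figure D4:**
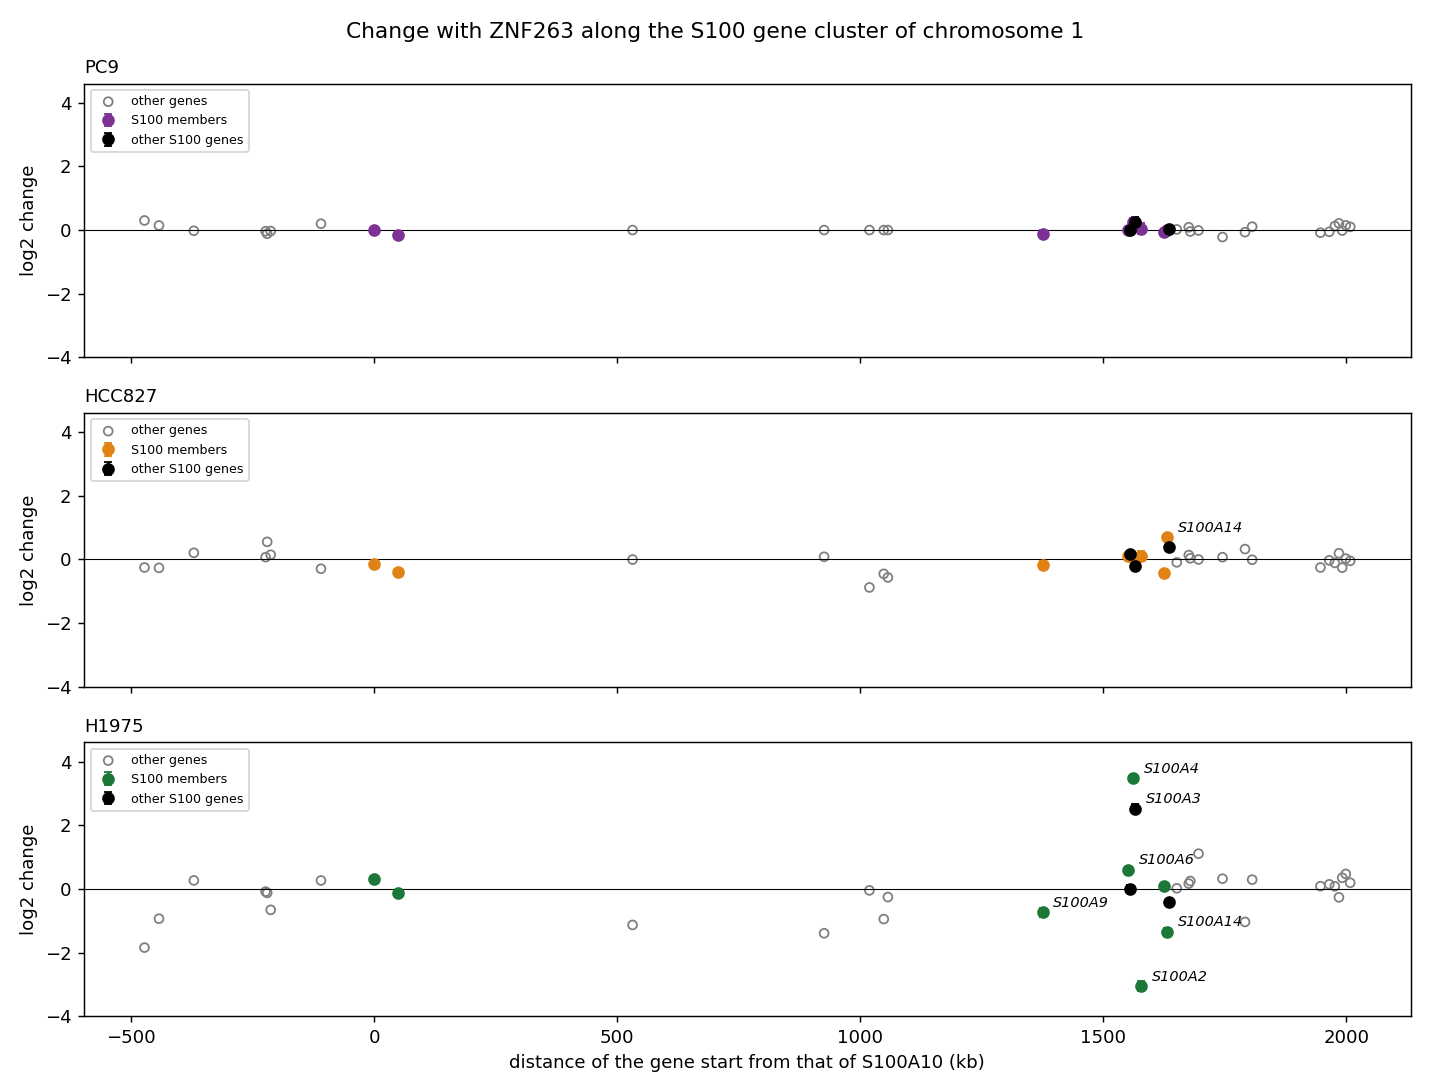
Log2 change of FPKM + 1, ZNF263 minus control, against the distance of a gene's start from that of S100A10 in kb, in the 3 lines. Coloured points are S100 members, black points other S100 genes (both ± SE) and grey circles other tested genes. In H1975, S100A4 at 3.48 and S100A3 at 2.52 stand next to S100A2 at -3.06, while the median of the 26 other genes is 0.05.

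Annexins, the calcium-dependent membrane proteins that S100A6, S100A10 and S100A11 bind, were called most often in H1975, where 64.2% of all tested genes were called, against 19.5% in HCC827 and 11.3% in PC9. Of 11 tested annexin genes, 3 were higher and 6 lower in H1975 (median log2 change -0.30), none was higher and 3 were lower in HCC827 (median -0.05), and 4 were higher and none lower in PC9 (median 0.09). Over all tested genes the medians were 0.00, 0.04 and 0.00. The HCC827 count of 3 was 1 without the first control library and 0 without the first ZNF263 library. ANXA2, the partner of S100A10, averaged 241 ± 1.37 FPKM with ZNF263 and 351 ± 5.79 FPKM with control in H1975 (SD, n = 2 each; log2 change -0.54 ± 0.057, limma adjusted p = 2.76e-06), while S100A10 was higher there. ANXA2 was not called in PC9 or HCC827. ANXA1, the partner of S100A11, rose by a log2 change of 0.22 in H1975 (limma adjusted p = 0.0126). Wide annexin changes in H1975 were those of ANXA8 at -2.40 (limma adjusted p = 1.14e-10), ANXA6 at 2.25 (limma adjusted p = 1.46e-10) and ANXA10 at -1.52 (limma adjusted p = 2.25e-09). In PC9, ANXA13 rose by a log2 change of 1.59 and ANXA8 by one of 0.88 (limma adjusted p = 6.52e-07 and 2.43e-05).

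**Figure D5:**
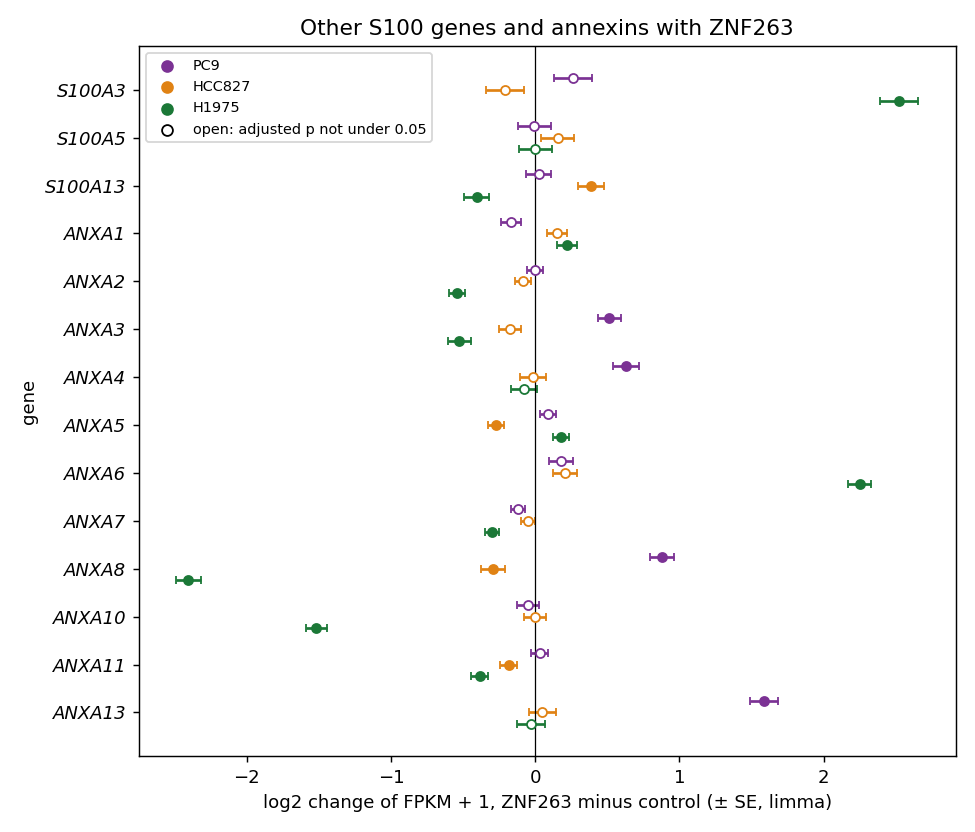
Log2 change of FPKM + 1, ZNF263 minus control, of the 3 other tested S100 genes and the 11 tested annexin genes in the 3 lines. Points are limma estimates and bars ± SE (n = 2 libraries per group), filled where the adjusted p was under 0.05. S100A3 and ANXA6 lie right of 2 and ANXA8 left of -2 in H1975.

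Receptors and adaptors through which secreted S100 proteins act had called shares in PC9 and HCC827 near those of all genes, 11.3% and 19.5%. Of 10 tested, 3 were higher and 5 lower in H1975 (median -0.18), against 64.2% of all tested genes called. None was higher and 2 were lower in HCC827 (median 0.01). In PC9, 1 was higher and none lower (median 0.08), MCAM, at 0.337 FPKM with ZNF263 and 0.126 FPKM with control. Leaving out 1 library at a time gave 0 or 1 calls in PC9 and 2 to 4 in HCC827. AGER, the receptor of S100P and S100A8/S100A9, had group means of at most 2.03 FPKM and was not called in any line. TLR4 stayed under 1 FPKM and was not tested, although its H1975 groups did not overlap, with means of 0.937 ± 0.0752 FPKM with ZNF263 and 0.0755 ± 0.0341 FPKM with control (SD, n = 2 each). MCAM, an adhesion receptor reported to bind S100A8 and S100A9, rose in H1975, with 28.4 ± 0.0483 FPKM with ZNF263 and 13.04 ± 0.282 FPKM with control (SD, n = 2 each; limma adjusted p = 1.21e-08). In HCC827 it fell to 17.2 ± 0.362 FPKM with ZNF263, against 24.5 ± 0.121 FPKM with control (SD, n = 2 each; limma adjusted p = 0.000267). BSG, a receptor for S100A9, rose by a log2 change of 0.50 in H1975 (limma adjusted p = 1.87e-05).

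A further list held mostly intracellular targets, besides the plasminogen activators PLAT and PLAU, which act outside the cell and were called in every line. Of its 17 tested genes, 7 were higher and 7 lower in H1975 (median 0.05), against 64.2% of all tested genes called. HCC827 had 2 higher and 3 lower (median -0.01), against 19.5% called. PC9 had 3 higher and 1 lower (median 0.00), against 11.3% called. With 1 library left out, the number called lay between 2 and 6 in HCC827 and between 2 and 4 in PC9. MYH9, the myosin heavy chain that S100A4 binds, averaged 346 ± 7.20 FPKM with ZNF263 and 298 ± 7.63 FPKM with control in H1975 (SD, n = 2 each; log2 change 0.22, limma adjusted p = 0.00192). EZR, the ezrin that S100P binds, fell by a log2 change of 0.65 in H1975 (limma adjusted p = 2.60e-07), where S100P was also lower, and was not called in PC9 or HCC827, where S100P was higher. CACYBP, the partner of S100A6, fell by 0.31 in H1975 (limma adjusted p = 0.00017). The plasminogen activators split in H1975. PLAT averaged 31.8 ± 0.81 FPKM with ZNF263 and 5.66 ± 0.701 FPKM with control (log2 change 2.30, limma adjusted p = 1.09e-09), and PLAU averaged 68.8 ± 3.13 FPKM with ZNF263 and 305 ± 9.89 FPKM with control (SD, n = 2 each; log2 change -2.13, limma adjusted p = 1.14e-10). LIMA1, an actin-binding protein known as a partner of S100A4, fell by a log2 change of 1.72 in H1975 (limma adjusted p = 1.43e-09).

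Other EF-hand calcium sensors, such as calmodulins and calpains, were counted for comparison. Of 18 tested, 6 were higher and 9 lower in H1975 (median -0.12), against 64.2% of all tested genes called. HCC827 had 1 higher and 5 lower (median -0.08), against 19.5% called. PC9 had 2 higher and none lower (median -0.01), against 11.3% called. With any 1 library of the line left out, fewer were called in H1975 and in PC9. In HCC827, fewer or more were called, depending on the library. The reticulocalbins RCN3 and RCN1, calcium-binding proteins of the endoplasmic reticulum, rose in H1975 by log2 changes of 1.76 and 1.08, and the protease subunit CAPN1 fell by 0.89. Of the genes of epidermal differentiation that share the chromosome 1 region, 4 of the 21 with values in PC9 were expressed enough to be tested. SPRR3, a cornified envelope protein, fell by 0.88 in HCC827, and IVL, the involucrin gene, fell by 1.39 in H1975. Of those 4, 3 were lower in HCC827, a count that fell without the first control library, and 2 were lower in H1975. All 4 were listed at 0 FPKM in every PC9 library, so none could be called there.

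Cell type markers were also called in H1975, where 32.1% of all tested genes were called higher and 32.1% lower. In HCC827 and PC9, 19.5% and 11.3% of all tested genes were called. Of 14 epithelial markers, 1 was higher and 13 lower in H1975 (median log2 change -1.93), and their summed level was 1925 to 1942 FPKM in ZNF263 libraries and 4341 to 4343 FPKM in control libraries. EPCAM, an epithelial adhesion protein, averaged 31.7 FPKM with ZNF263 and 225 FPKM with control (log2 change -2.79, limma adjusted p = 1.71e-11). Of 12 mesenchymal markers, 7 were higher and 1 lower in H1975 (median 0.52), with summed levels of 2808 to 2830 FPKM with ZNF263 and 1946 to 1977 FPKM with control. HCC827 had 4 epithelial markers higher and 2 lower, and 1 mesenchymal marker higher and 5 lower. PC9 had 3 epithelial markers higher and none lower, and 3 mesenchymal markers higher and 2 lower, which was 3 called in all without any 1 of its libraries. No marker of either class was at 0 in every H1975 library, while OVOL1 and COL1A2 were listed at 0 throughout PC9. Their part in the S100 changes was not tested.

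The label of lung tumour cells was set against markers of lung adenocarcinoma and epithelium. In PC9 the surfactant genes SFTPB, SFTPA1 and SFTA2 were listed at 0 in all libraries and EPCAM had means of 0.251 FPKM with ZNF263 and 0.291 FPKM with control, while the epithelial keratin KRT7 averaged 544 ± 36.9 FPKM with ZNF263 and 527 ± 0.158 FPKM with control (SD, n = 2 each). HCC827 carried the lung lineage factor NKX2-1 at 148 ± 7.64 FPKM with ZNF263 and 132 ± 2.81 FPKM with control (SD, n = 2 each). Of 8 tested adenocarcinoma markers, 6 were higher and 1 lower in HCC827, none was higher and 3 were lower in H1975, and 2 were higher and none lower in PC9, which was 1 without either control library or without the second ZNF263 library. Fibroblast markers, relevant to S100A4, which fibroblasts also express, summed to 13.996 to 14.536 FPKM with ZNF263 and 21.0 to 23.0 FPKM with control in H1975, with THY1, DCN, FAP and PDGFRA at or near 0. Of 5 tested, 2 were higher and 3 lower in H1975, 1 was higher in HCC827 and none was called in PC9. Beside these counts and those of the adenocarcinoma markers stand the shares over all tested genes. In H1975, 32.1% were called higher and 32.1% lower. The shares were 13% and 6.44% in HCC827, and 7.21% and 4.12% in PC9. None of 7 endothelial markers was expressed enough to be tested, and their summed level stayed under 1 FPKM in every library.

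The genes whose pattern was most like each member were found among 9364 genes that averaged 1 FPKM or more in every line, by Pearson's r over the 12 libraries after the mean of each line was subtracted. These values are a description: the points share libraries and depth, and the difference between the groups enters r. For S100A4 they were SSR2, HSPG2 and MVB12A (r = 0.997, 0.995 and 0.994). HSPG2, which encodes the matrix proteoglycan perlecan, was 2.53 higher with ZNF263 in H1975 on the log2 scale, and SSR2, a subunit of the signal sequence receptor, 0.55 higher. For S100A2 they were the ribosomal protein genes RPL30 and RPL7 and the protease inhibitor CSTB (r = 0.992, 0.989 and 0.989), whose H1975 changes were -0.76, -0.61 and -1.63.

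S100P, with its gains in PC9 and HCC827 and its loss in H1975, was most like RAB15, RANBP17 and TRAM1 (r = 0.984, 0.958 and 0.954). RAB15, a small GTPase of endosomes, changed by 0.66 in PC9, by 0.44 in HCC827 and by -0.50 in H1975. S100A14 was most like TSPAN31, ATP8B3 and CELSR1 (r = 0.989, 0.983 and 0.981), of which CELSR1, a planar polarity cadherin, changed by 0.63 in HCC827 and -1.22 in H1975. S100A11 was most like NRBP1, SRI and CAV1 (r = 0.972, 0.957 and 0.949), all below control in every line, with HCC827 changes of -0.36, -0.30 and -0.50. SRI encodes sorcin, itself an EF-hand calcium sensor, and CAV1 the caveolar coat protein. For S100A6 they were PHPT1, NUCB1 and MEN1 (r = 0.987, 0.983 and 0.979), of which NUCB1 encodes a calcium-binding Golgi protein. S100A10 was most like PER1, RANBP1 and CERS2 (r = 0.966, 0.961 and 0.953), S100A16 most like DEXI, GAPDH and MAPKAPK3 (r = 0.969, 0.956 and 0.952) and S100A9 most like MORN4, MUS81 and ADCY3 (r = 0.958, 0.952 and 0.948).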

How the data were processed

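The 12 RNA-seq libraries were grouped by the line and vector in their titles and genotype labels. Per the labels, RNA was harvested with TRIZOL, and the library kit was SMARTER mRNA-seq. The authors deposited FPKM values, with GRCh38.p13 as the build per the submitters' processing notes. The aligner, counter, annotation and strandedness were not given in the sources used here, and 27 entries whose names had become dates were left out.

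Values were analysed as log2(FPKM + 1) with limma 3.58.1 (trended empirical Bayes, 1 mean per group, no block) in R 4.3.3, tested on simulated data. Read numbers, sought for 1000 genes a line, were whole for 99.1% (PC9), 99.4% (HCC827) and 97.9% (H1975), and after shuffling for 0.5, 1 and 0.3%. Gene positions are from GENCODE 29 (GRCh38). The members and gene lists were chosen with earlier results of these data known. All members are named, the 3 genes most like each, and of each list those among the 4 largest changes of a line. Known partners of a member, receptors and defining markers were named besides, after their values were seen. Alternatives changed the pseudocount, filter, scaling, libraries, block and prior variance. A planned comparison of protein sequences was not run.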

Additional observations from a re-analysis of the deposited data

Results flagged for a closer look

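Several genes were called in opposite directions in 2 lines, and for non-members the difference between the lines' ZNF263 effects was tested with limma, with adjustment over all genes. Among the members, the log2 change of S100P in H1975 lay below that in PC9 by a difference of -3.2 and below that in HCC827 by -2.29, and S100A14 in H1975 differed from HCC827 by -2.04, differences that were not tested because the members were chosen with these changes known. S100A13 in H1975 differed from HCC827 by -0.8 (limma adjusted p = 0.000151).

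HCC827 minus PC9 differences of the ZNF263 effect were -1.17 for ANXA8, -0.6 for CDH2, -0.73 for MCAM and -0.66 for PLAU. H1975 minus PC9 differences were -1.04 for ANXA3, -3.28 for ANXA8, -3.22 for CDH1, -0.39 for CHP1, 0.61 for ITGA5, -0.87 for KRT18, -2.11 for MUC1 and -2.54 for PLAU. H1975 minus HCC827 differences were 0.53 for AHNAK, 0.45 for ANXA5, -2.25 for CLDN3, -2.7 for CLDN4, -2.64 for FOXA2, 0.8 for ITGA5, 1.55 for MCAM, -2.08 for MUC1, -1.87 for OVOL1 and 1.34 for VIM. All of these non-member differences passed an adjusted p of 0.05.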

How the results depend on the processing

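No called member change reversed its sign under any alternative run. Under alternatives, 336 member changes moved by no more than the spread between replicates and 12 by more. Many of these values could not exceed that spread. The filter, the block, the prior variance and a fit of 1 line leave a change unaltered. Leaving out 1 of 2 libraries cannot shift it by more than that spread. Only the pseudocount, the scaling and quantile normalization could move a change further. The count of genes called varied between alternatives. In PC9, 1430 genes were called, against 407 when PC9 was fitted by itself and 591 to 854 when 1 library was left out. In HCC827, 2386 were called, against 634 when it was fitted by itself, 1527 when it was also filtered by itself (an alternative chosen after seeing the data) and 1082 to 3109 when 1 library was left out. In H1975, 7870 were called and 6886 to 6970 with 1 library left out. The share of HCC827 calls that were higher was 66.9%, against 45.04% when scaled by the median of ratios and 50.5% when quantile normalized, with the median of all genes at 0.04, 0.00 and 0.00. Members called in PC9 numbered 1, against 2 with the replicate block and 2 when PC9 was fitted and filtered by itself, S100A4 being the second. The shared replicate numbers did not pair the libraries (correlation of deviations 0.03 in PC9, 0.10 in HCC827 and -0.06 in H1975), and with the replicate block 1364, 2262 and 7850 genes were called in PC9, HCC827 and H1975. With no filter on low values, S100A8 was also called in H1975, which made 8 members. Of the list counts under alternatives, 62 moved by over 1.5 times and 406 by less. Less the 10 nearest neighbours in place of 20, H1975 changes were -3.04 for S100A2, 3.49 for S100A4, 0.62 for S100A6, 0.51 for S100A10 and 0.07 for S100A11. Less the 40 nearest they were 3.40 for S100A4, 0.22 for S100A10 and -0.22 for S100A11, so the sign for S100A11 depended on the number of neighbours. The causes were not tested. Few reads limit S100A8 in every line with a value, S100A9 in PC9 and HCC827, and S100A14 in PC9.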
